A study of Mus musculus with 6 samples.

Results

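Transcripts of mast cells were followed in endometriosis-like lesions of mice given niclosamide, an oral anthelmintic drug, or vehicle. The set held 10 genes of the 41786 gene symbols counted, taken by name. They were the proteases *Cpa3*, *Cma1*, *Mcpt4*, *Tpsb2* and *Tpsab1*, the IgE receptor chains *Fcer1a* and *Ms4a2*, the receptor *Kit* with its ligand *Kitl*, and histidine decarboxylase, *Hdc*. All animals were female C57BL/6 mice. Uterine tissue of 6-week-old B6-GFP Positive donors had been sutured onto the peritoneal wall of wild-type recipients aged 8 weeks, with matched estrous cycles. After 3 days, recipients received vehicle (3 libraries) or niclosamide at 200 mg/kg body weight (3 libraries) every day for 3 weeks, and the implants were collected in diestrus, separated from recipient tissue. The recipients keep their own leukocytes, and reads of donor and recipient cells were counted together. Vehicle 1 is a pool of RNA from 4 mice, while every other library is a single mouse. The p-values thus set the group difference against a within-group spread taken from 1 pool and 5 single animals.

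Mast cells are tissue leukocytes that grow under stem cell factor, the product of *Kitl*, acting on the receptor tyrosine kinase Kit. Their granules store histamine, made by histidine decarboxylase, and proteases bound to heparin: carboxypeptidase A3, chymases and tryptases. Antigen that cross-links IgE on the high-affinity IgE receptor releases these granules. Connective tissue mast cells, the type found in uterine muscle, skin and the peritoneal cavity, hold *Cma1*, *Mcpt4*, *Cpa3* and *Tpsb2*, whereas mucosal mast cells hold *Mcpt1* and *Mcpt2*.

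The libraries held 27797121 to 34797000 counted reads, and levels are given as CPM, counts per 1e6 counted reads, on library sizes scaled by TMM. A count of 0 allows up to 3 counts, 0.0823 to 0.109 CPM in these libraries, for counting error only. Uterine epithelium markers (9 of 9 counted) summed to 813 to 1950 CPM with vehicle and 368 to 2380 with niclosamide. Skeletal muscle markers (8 of 8) summed to 4600 to 11300 CPM with vehicle and to 768 (niclosamide 2) to 32400 (niclosamide 1), and adipocyte markers (6 of 6) to 56.6 to 181 and 36.6 to 504. Niclosamide was compared with vehicle in edgeR (quasi-likelihood F-test), and p was adjusted by Benjamini and Hochberg's method over the 17364 genes that passed a filter on low counts, a group that held 9 of the 10 genes (*Tpsab1* fell below it).

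No mast cell gene passed the test for a difference between niclosamide and vehicle lesions. Of the 9 tested, 0 had an adjusted p under 0.05, as did 0% of all genes tested, and 0 had an unadjusted p under 0.05, against 6.92% of all genes (3.37% higher and 3.55% lower). The niclosamide and vehicle libraries overlapped in all 9, whereas they did not overlap in 12.3% of all genes (5.9% higher with niclosamide, 6.38% lower). Fold changes (log2, niclosamide over vehicle) lay above 0 in 6 of the 9 genes and in 53.7% of all genes, with a median of 0.30 against 0.02 over all genes tested. DESeq2's Wald test also called 0 of these genes, and 1.01% of the genes to which it gave an adjusted p. The intervals were wide for most members: a log2 fold change of 1 in at least one direction lay inside the 95% interval of each tested gene but *Kit* and *Kitl*. In bulk tissue, a change in mast cell number and a change in RNA per mast cell cannot be told apart.

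**Figure D1:**
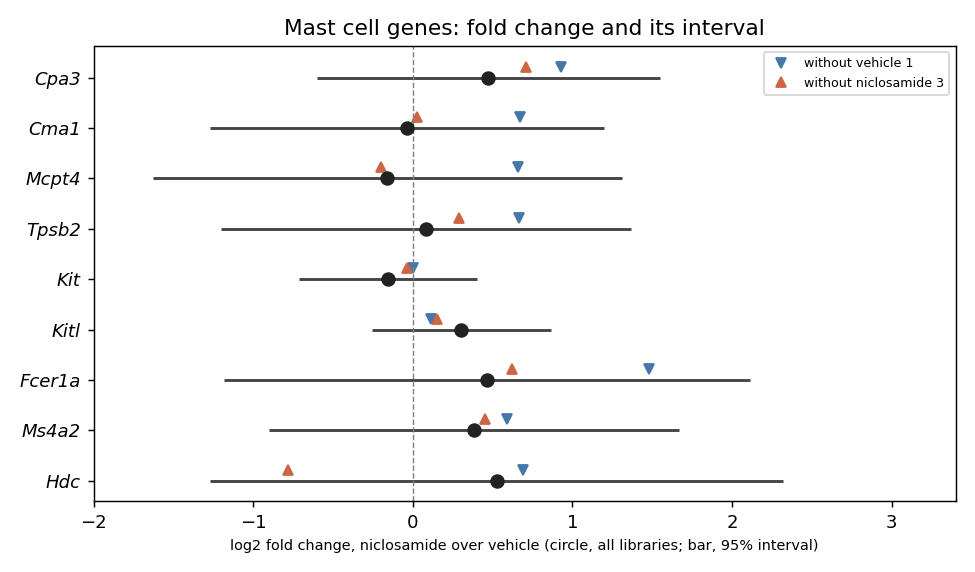
Log2 fold change of the 9 tested genes, niclosamide over vehicle, from edgeR (circles) with 95% intervals (bars), and the value without vehicle 1 or without niclosamide 3 (triangles). Every bar crosses 0, and the value of *Hdc* lies at 0.53 with all libraries and at -0.78 without niclosamide 3.

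Levels per counted exon length (FPKM, CPM divided by the exon length in kilobases) put *Hdc* at the top, with a mean of 20.0 over the 6 libraries. *Kitl* followed at 8.83, *Kit* at 7.06 and *Cma1* at 5.64, then *Tpsb2* at 3.73, *Cpa3* at 3.23 and *Mcpt4* at 2.78. The IgE receptor chain *Fcer1a* was lower at 0.533, and *Tpsab1* and *Ms4a2* lowest at 0.125 and 0.124. The counted exons of *Ms4a2* came to 2933 bases, whereas its GENCODE transcript has 1010, so its low FPKM and its rank depend on the length used. The ranges of *Kitl* (5.72 to 11.8 FPKM) and *Kit* (5.65 to 9.01) overlapped, as did those of *Cma1* (2.37 to 10.2), *Tpsb2* (1.76 to 6.06), *Cpa3* (1.5 to 4.63) and *Mcpt4* (1.4 to 5.48). Within libraries the order was firmer for some neighbours than for others. *Cma1* lay above *Tpsb2* in 6 of 6 libraries and *Tpsb2* above *Cpa3* in 5, whereas *Kitl* lay above *Kit* in 4 and *Cpa3* above *Mcpt4* in 3. *Fcer1a*, at 0.133 to 0.919 FPKM, lay below every library's value of the 4 granule proteases above it.

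**Figure D2:**
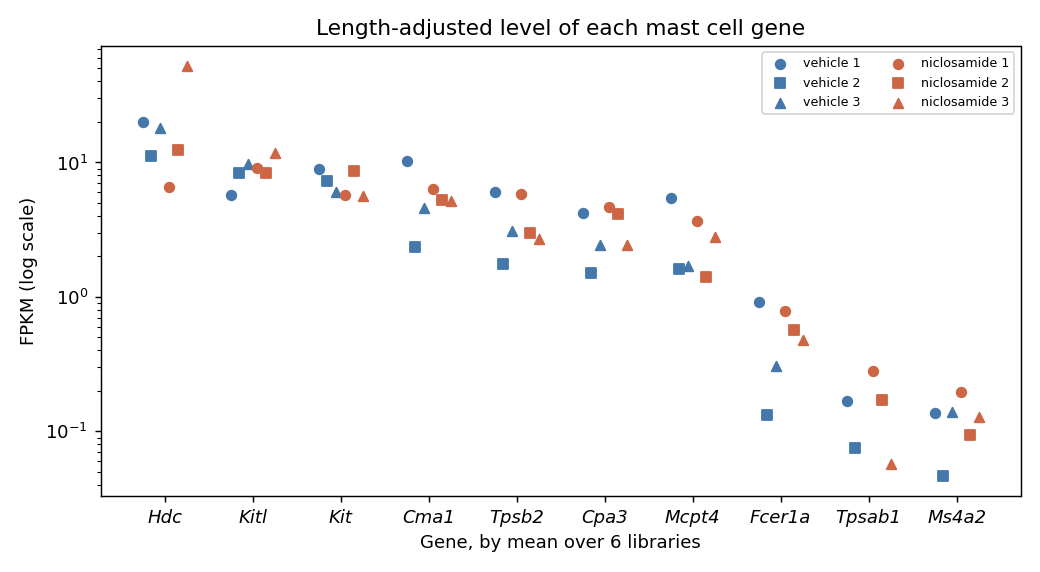
FPKM of each gene (log scale) in each library, genes ordered by their mean over the 6 libraries; colour marks the group and symbol the replicate. *Tpsab1* had no read in vehicle 3, which is not drawn; *Hdc* spans 6.58 to 51.8 FPKM and *Kit* only 5.65 to 9.01.

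*Cpa3* (chromosome 3, 20215616 to 20242209, minus strand; GRCm38), the gene of mast cell carboxypeptidase A, measured 6.19, 2.22 and 3.61 CPM across vehicle libraries 1 to 3, against 6.86, 6.18 and 3.64 across niclosamide libraries 1 to 3. Vehicle 1 and niclosamide 1 and 2 were high and the other 3 libraries low, so that the groups overlapped. The means were 4.01 CPM ± 2.02 (SD, n = 3) and 5.56 ± 1.70, a log2 fold change of 0.47 ± 0.45 (SE; edgeR adjusted p = 0.95). Without vehicle 1 the log2 fold change was 0.93 (adjusted p = 0.94), without niclosamide 3 it was 0.71, and without vehicle 2 it was 0.18. Without niclosamide 1 it was 0.29.

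The chymases *Cma1* and *Mcpt4* lie in the mast cell protease cluster of chromosome 14 (55941451 to 55944661 and 56059744 to 56062310, both on the minus strand). *Cma1*, the mouse alpha-chymase gene, measured 10.9, 2.55 and 4.96 CPM across vehicle libraries 1 to 3, against 6.82, 5.62 and 5.53 across niclosamide libraries 1 to 3. The 3 niclosamide libraries lay close together (mean 5.99 CPM ± 0.723) inside the broad range of the vehicle libraries (6.15 ± 4.31), so that the pooled vehicle library was the highest of the 6 and vehicle 2 the lowest. The log2 fold change was -0.03 ± 0.51 (SE; edgeR adjusted p = 0.996). It became 0.67 without vehicle 1, 0.03 without niclosamide 3 and -0.41 without vehicle 2.

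*Mcpt4*, whose product is the beta-chymase that cleaves matrix proteins and angiotensin, measured 5.43, 1.59 and 1.70 CPM across vehicle libraries 1 to 3, against 3.63, 1.39 and 2.77 across niclosamide libraries 1 to 3. Vehicle 1 again stood highest, and here niclosamide 2 was lowest. The means were 2.91 CPM ± 2.19 and 2.60 ± 1.13, a log2 fold change of -0.16 ± 0.61 (SE; edgeR adjusted p = 0.98), which turned to 0.66 without vehicle 1 and to 0.125 without niclosamide 2, and was -0.49 without niclosamide 1. Relative to *Cpa3*, *Mcpt4* stood at 0.337 in niclosamide 2 (ratio of FPKM) and at 0.702 to 1.31 in the other 5 libraries.

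The chymase genes are related copies. Their coding sequences agreed at 66.7% of 733 aligned bases in GENCODE M21 (GRCm38). The most alike stretch of 90 bases is shown because it tells how far the pair differs where it is most alike; capitals mark the 13 bases that differ.
Cma1, coding bases 633 to 722: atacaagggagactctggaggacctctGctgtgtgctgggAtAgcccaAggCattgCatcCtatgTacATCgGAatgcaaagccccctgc
Mcpt4, coding bases 591 to 680: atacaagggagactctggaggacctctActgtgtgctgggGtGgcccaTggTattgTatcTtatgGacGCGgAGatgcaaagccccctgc
Of all stretches of 50 bases in the *Cma1* transcript, 5.46% also occurred in another gene (the predicted gene *Gm48934*), and of those of *Mcpt4* 5.48% occurred in *Cma2* or *Mcpt9*. No such stretch was shared between *Cma1* and *Mcpt4*. For the other 8 genes the share was 0%, so little of any value here rests on reads shared at that length; the read length is not given in the sources used here.

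The tryptases are encoded side by side on chromosome 17. *Tpsb2* (25366303 to 25368096, plus strand), the main tryptase of connective tissue mast cells, measured 7.0, 2.03 and 3.55 CPM across vehicle libraries 1 to 3, against 6.72, 3.46 and 3.11 across niclosamide libraries 1 to 3. Vehicle 1 and niclosamide 1 stood well above the other 4 libraries, 1 from each group. The means were 4.19 CPM ± 2.54 and 4.43 ± 1.99, a log2 fold change of 0.08 ± 0.54 (SE; edgeR adjusted p = 0.99). It was 0.67 without vehicle 1, 0.29 without niclosamide 3, -0.25 without vehicle 2, -0.02 without vehicle 3 and -0.36 without niclosamide 1.

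*Tpsab1* (25343245 to 25345562, minus strand), the other tryptase gene, is known to carry a splice-site change in C57BL/6 mice, which lack its protein. It measured 5, 3 and 0 reads across vehicle libraries 1 to 3, against 9, 6 and 2 across niclosamide libraries 1 to 3. In CPM these were 0.182, 0.0823 and 0 against 0.306, 0.185 and 0.0621, and the highest library, niclosamide 1, had a 95% exact binomial interval of 0.14 to 0.58 (counting error only). Vehicle 2, vehicle 3 and niclosamide 3 were at or below what a count of 0 allows, the groups overlapped, and *Tpsab1* made up 0 to 5.08% of the reads of both tryptase genes. The coding sequences of the pair agreed at 74.9% of 828 aligned bases. Their most alike 90 bases are shown because they tell how few differences separate a *Tpsab1* read from a *Tpsb2* read there; capitals mark the 6 bases that differ.
Tpsb2, coding bases 724 to 813: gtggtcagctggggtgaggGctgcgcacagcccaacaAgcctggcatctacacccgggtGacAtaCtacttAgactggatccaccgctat
Tpsab1, coding bases 826 to 915: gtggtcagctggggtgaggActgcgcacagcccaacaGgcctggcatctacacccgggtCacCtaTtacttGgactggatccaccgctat

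Other granule proteases mark other types of mast cell. The mucosal genes *Mcpt1* and *Mcpt2* and the related *Mcpt9* had at most 2, 5 and 1 reads in any library, and *Cma2* at most 1, whereas *Cpa3*, *Cma1*, *Mcpt4* and *Tpsb2* had reads in every library. *Mrgprb2*, the receptor through which peptides and some drugs act on connective tissue mast cells, measured 0.474, 0.247 and 0.283 CPM across vehicle libraries 1 to 3, against 0.679, 0.556 and 0.155 across niclosamide libraries 1 to 3 (log2 fold change 0.48 ± 0.60 SE; edgeR adjusted p = 0.97). Of the 20 further mast cell genes listed, 14 were tested and 0 had an unadjusted p under 0.05, with a median log2 fold change of 0.19. The smallest p among them were those of the receptor for interleukin-33, *Il1rl1* (10.1 CPM ± 2.87 and 14.5 ± 5.53, log2 fold change 0.53 ± 0.35), the vesicular amine transporter *Slc18a2* (0.72 ± 0.48), *Ltc4s*, an enzyme of leukotriene synthesis (-0.66 ± 0.45), and *Rab27b*, a GTPase of granule release (-0.56 ± 0.43), with edgeR adjusted p of 0.88 to 0.92. *Slc18a2* had only 8 to 26 reads a library. The transcription factor genes *Gata2* (72.6 CPM ± 8.97 and 54.9 ± 32.7) and *Mitf* (41.7 ± 8.45 and 48.5 ± 14.3), both needed for mast cell development, averaged 13.7 and 6.95 FPKM over the 6 libraries, and other cells express them as well.

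The alpha chain of the IgE receptor, which binds IgE, is encoded by *Fcer1a* (chromosome 1, 173221269 to 173227232, minus strand). It measured 26, 5 and 10 reads across vehicle libraries 1 to 3, against 24, 19 and 16 across niclosamide libraries 1 to 3, which is 0.947, 0.137 and 0.314 CPM against 0.815, 0.587 and 0.497 CPM. Vehicle 1 was the highest and vehicle 2 the lowest library, as for *Cma1* and *Tpsb2*, and the 3 niclosamide libraries lay between them. The means were 0.466 CPM ± 0.426 and 0.633 ± 0.164 (log2 fold change 0.46 ± 0.69 SE; edgeR adjusted p = 0.97). Without vehicle 1, *Fcer1a* alone of the 9 genes had an unadjusted p under 0.05 (log2 fold change 1.48, unadjusted p = 0.041, edgeR adjusted p = 0.92), with 2 vehicle libraries of 5 and 10 reads left. Without vehicle 2 the log2 fold change was 0.01. It was 0.25 without vehicle 3 and 0.24 without niclosamide 1. With all libraries kept it was 0.84 by limma-voom, 1.02 with library quality weights and 0.74 with the replicate block.

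*Ms4a2* (chromosome 19, 11615517 to 11624034, minus strand), the signal-amplifying beta chain of that receptor, measured 11, 5 and 13 reads across vehicle libraries 1 to 3, against 17, 9 and 12 across niclosamide libraries 1 to 3. In CPM, these were 0.401, 0.137 and 0.408 against 0.577, 0.278 and 0.373. The groups overlapped, and the 95% counting intervals overlapped for every pair of libraries except vehicle 2 and niclosamide 1 (0.0446 to 0.32 and 0.336 to 0.924 CPM). The log2 fold change was 0.38 ± 0.535 (SE; edgeR adjusted p = 0.97). It was 0.01 without vehicle 2, 0.06 without niclosamide 1, and 0.45 to 0.625 without any other single library. The gamma chain gene *Fcer1g*, which serves Fc receptors of many leukocytes, averaged 208 FPKM over the 6 libraries against 0.533 for *Fcer1a*, and had a log2 fold change of 0.36 ± 0.28 (edgeR adjusted p = 0.92).

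The granule proteases and the IgE receptor chains shared their highest and lowest libraries in part. Vehicle 2 had the lowest level of *Cpa3*, *Cma1*, *Tpsb2*, *Fcer1a* and *Ms4a2*, and vehicle 1 or niclosamide 1 the highest level of these and of *Mcpt4*. The summed level of *Cpa3*, *Cma1*, *Mcpt4* and *Tpsb2* was 29.5, 8.40 and 13.8 CPM across vehicle libraries 1 to 3, against 24.0, 16.6 and 15 across niclosamide libraries 1 to 3. The pooled vehicle library and niclosamide 1 thus stood highest, and the vehicle group alone covered the whole range (17.2 CPM ± 11 against 18.5 ± 4.80). The mean log2 CPM of the 4 proteases differed by 0.22 between groups, by 0.70 without vehicle 1 and by -0.18 without vehicle 2.

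The libraries also differed in markers of fat and muscle. The adipocyte markers summed to 181, 108 and 56.6 CPM across vehicle libraries 1 to 3, against 504, 36.6 and 65.7 across niclosamide libraries 1 to 3, and so were likewise highest in niclosamide 1 and vehicle 1. The skeletal muscle markers did not share that order, since vehicle 1 had 4600 CPM and niclosamide 1 had 32400. Smooth muscle markers (8 of 8), from a tissue in which uterine mast cells lie, summed to 5730 to 8460 CPM with vehicle and 1940 to 4780 with niclosamide. Of these, 7 of 8 genes had an unadjusted p under 0.05 (lower), against 3.55% of all genes tested, and 0 had an adjusted p under 0.05. The part of these tissues in the protease levels was not tested. The leukocyte gene *Ptprc* (CD45) measured 257, 314 and 332 CPM across vehicle libraries 1 to 3, against 581, 487 and 374 across niclosamide libraries 1 to 3 (log2 fold change 0.675 ± 0.21 SE; edgeR adjusted p = 0.63). The groups did not overlap in *Ptprc*, as in 12.3% of all genes tested. The protease sum made up 11.5, 2.67 and 4.17% of *Ptprc* (ratio of CPM) across vehicle libraries 1 to 3 and 4.14, 3.42 and 4.02% in niclosamide 1 to 3, so that relative to *Ptprc* only vehicle 1 stood apart. On that scale the difference in mean log2 level was -0.44 with all libraries kept. This value includes vehicle 1 and was not computed without it, so its sign may rest on that library.

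**Figure D3:**
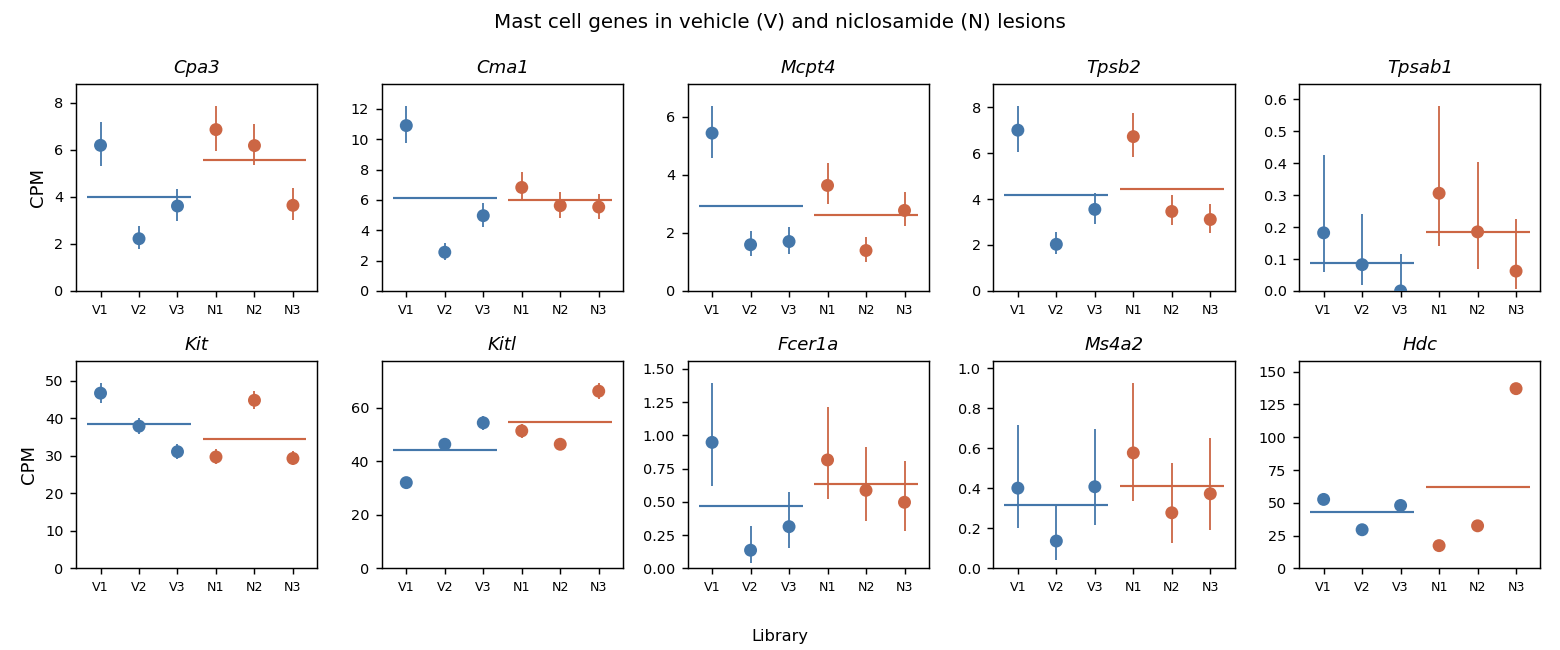
CPM of each gene in each library (points) with 95% exact binomial intervals, which cover counting error only, and group means (lines); V, vehicle, N, niclosamide. In all 10 panels the groups overlap; vehicle 2 is lowest for *Cpa3*, *Cma1*, *Tpsb2*, *Fcer1a* and *Ms4a2*, and niclosamide 3 is highest for *Hdc* at 137 CPM.

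Upstream sequence is shown for 5 protease and IgE receptor genes and, for contrast, for *Hdc*. RefSeq (GRCm38.p6) start sites were matched for 8 of the 10 genes, all but *Tpsb2* and *Tpsab1*, and the 250 bases before each start were searched on both strands for the GATA-factor motifs AGATAA and TGATAA and for CATGTG, an E-box bound by MITF. No matches overlapped one another. Capitals mark matches in either orientation.
Cpa3, chr3:20242182-20242431, minus strand: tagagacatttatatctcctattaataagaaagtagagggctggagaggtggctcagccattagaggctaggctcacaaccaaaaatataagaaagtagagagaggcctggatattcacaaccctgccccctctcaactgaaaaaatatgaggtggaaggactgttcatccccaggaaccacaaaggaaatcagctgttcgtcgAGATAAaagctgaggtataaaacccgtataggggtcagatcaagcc
Cma1, chr14:55944676-55944925, minus strand: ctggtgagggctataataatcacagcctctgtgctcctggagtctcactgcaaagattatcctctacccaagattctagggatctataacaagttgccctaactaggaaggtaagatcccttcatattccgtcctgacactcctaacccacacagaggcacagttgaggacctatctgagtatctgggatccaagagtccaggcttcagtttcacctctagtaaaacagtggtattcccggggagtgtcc
Mcpt4, chr14:56062311-56062560, minus strand: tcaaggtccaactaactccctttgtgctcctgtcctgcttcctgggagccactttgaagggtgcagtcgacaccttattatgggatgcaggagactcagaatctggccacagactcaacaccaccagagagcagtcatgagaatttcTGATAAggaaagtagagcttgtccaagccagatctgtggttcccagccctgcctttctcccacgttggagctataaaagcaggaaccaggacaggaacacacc
Fcer1a, chr1:173227230-173227479, minus strand: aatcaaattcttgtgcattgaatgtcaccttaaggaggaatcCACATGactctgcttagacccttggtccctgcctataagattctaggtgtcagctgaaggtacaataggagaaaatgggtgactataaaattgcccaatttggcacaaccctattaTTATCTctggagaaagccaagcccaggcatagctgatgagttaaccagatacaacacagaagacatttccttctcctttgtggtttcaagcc
Ms4a2, chr19:11623720-11623969, minus strand: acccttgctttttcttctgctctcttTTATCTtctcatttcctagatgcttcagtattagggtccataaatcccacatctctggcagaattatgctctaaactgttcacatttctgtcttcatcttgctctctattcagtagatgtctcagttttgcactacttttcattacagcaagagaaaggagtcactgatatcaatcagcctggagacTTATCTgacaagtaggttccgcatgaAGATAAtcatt
Hdc, chr2:126618679-126618928, minus strand: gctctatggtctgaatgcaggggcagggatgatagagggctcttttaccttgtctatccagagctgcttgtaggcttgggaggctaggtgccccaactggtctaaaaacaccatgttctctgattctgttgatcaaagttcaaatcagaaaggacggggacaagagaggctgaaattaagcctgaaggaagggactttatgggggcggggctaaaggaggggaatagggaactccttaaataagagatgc
*Cpa3* and *Fcer1a* each held 1 copy of AGATAA, *Ms4a2* held 3 and *Mcpt4* held 1 copy of TGATAA, while CATGTG was found in *Fcer1a*. None of the motifs was found in the window of *Cma1*, *Hdc*, *Kit* or *Kitl*. Of 32851 RefSeq start sites, 16.6% had AGATAA or TGATAA and 12.3% had CATGTG in the same window. The *Hdc* and *Ms4a2* windows lie wholly inside the span over which reads of those genes were counted. The matches describe letters and no binding was measured.

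*Kit* (chromosome 5, 75574987 to 75656722, plus strand), the stem cell factor receptor, measured 46.7, 37.9 and 31.1 CPM across vehicle libraries 1 to 3, against 29.7, 44.8 and 29.3 across niclosamide libraries 1 to 3. Vehicle 1 and niclosamide 2 were highest, and the whole range was only 1.59-fold. The means were 38.6 CPM ± 7.81 and 34.6 ± 8.85, with a log2 fold change of -0.16 ± 0.23 (SE; 95% interval -0.71 to 0.40; edgeR adjusted p = 0.97). It was 0.00 without vehicle 1, -0.28 without vehicle 3, -0.40 without niclosamide 2, -0.06 without niclosamide 1 and -0.04 without niclosamide 3.

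*Kit* did not follow the proteases: its FPKM was 1.24 times that of *Cpa3* in niclosamide 1 and 4.87 times in vehicle 2. Cells other than mast cells express *Kit*, among them melanocytes and interstitial cells of Cajal. The melanocyte markers (5 of 5 counted) summed to 0.754 to 1.2 CPM with vehicle and 0.715 to 1.56 with niclosamide. *Tyrp1* and *Tyr* had at most 1 read, while *Pmel* had 12 to 34 reads in every library. In niclosamide 1, *Mlana* had 28 reads and *Dct* had 6, against 1 to 4 and 0 to 1 in the other libraries. The markers of interstitial cells of Cajal (4 of 4) summed to 311 to 469 CPM with vehicle and 219 to 232 with niclosamide, nearly all of it from *Thbs4* and *Ano1*, which other cells also express, and *Hcn4* was near 0. *Thbs4* averaged 336 CPM ± 86.4 in vehicle lesions, against 185 ± 21.5 in niclosamide lesions (log2 fold change -0.86 ± 0.22; unadjusted p = 0.0068, edgeR adjusted p = 0.59), without overlap between the groups. *Etv1* had 5.57 CPM ± 1.02 and 3.62 ± 0.552 (edgeR adjusted p = 0.74), and its groups did not overlap either. The groups did overlap in *Ano1*, at 41.1 CPM ± 7.09 and 38.2 ± 25.1 (log2 fold change -0.10 ± 0.47, edgeR adjusted p = 0.985). Its highest library was niclosamide 3, at 66.0 CPM. The part of these cells in the *Kit* level was not tested.

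*Kitl* (chromosome 10, 100015809 to 100100416, plus strand) encodes stem cell factor, which stroma, endothelium and epithelium present to mast cells. It measured 32.0, 46.3 and 54.3 CPM across vehicle libraries 1 to 3, against 51.3, 46.3 and 66.1 across niclosamide libraries 1 to 3. The pooled vehicle library was lowest and niclosamide 3 highest, while the other 4 libraries lay between 46.3 and 54.3 CPM. The means were 44.2 CPM ± 11.3 and 54.5 ± 10.3, with a log2 fold change of 0.30 ± 0.23 (SE; 95% interval -0.26 to 0.86; edgeR adjusted p = 0.92). It was 0.12 without vehicle 1, 0.485 without vehicle 3 and 0.15 without niclosamide 3. Vehicle 1 thus combined the lowest *Kitl* with the highest *Kit* and *Cma1*. The genes most like *Kitl*, by Pearson correlation of log2 CPM over the 6 libraries among 13110 candidates, were *Senp7* (0.993), *Zfp945* (0.992) and *BC002059* (0.986). With so few libraries and so many candidates, correlations this high can arise without any link, and a link was not tested.

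*Hdc* (chromosome 2, 126593659 to 126624022, minus strand), the histamine-forming enzyme, measured 52.6, 29.5 and 48.0 CPM across vehicle libraries 1 to 3, against 17.4, 32.5 and 137 across niclosamide libraries 1 to 3. The niclosamide group held both the highest and the lowest library of the 6, a 7.88-fold range. The means were 43.4 CPM ± 12.2 and 62.4 ± 65.3, with a log2 fold change of 0.53 ± 0.74 (SE; edgeR adjusted p = 0.97). The direction rested on niclosamide 3: without it the niclosamide mean was 25.0 CPM and the log2 fold change -0.78 (unadjusted p = 0.093, edgeR adjusted p = 0.57). It was 0.96 without niclosamide 1 and 0.30 without vehicle 2. With all libraries kept it was 0.04 by limma-voom, 0.14 with library quality weights and 0.04 with the replicate block.

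*Hdc* went its own way from the proteases. Its FPKM was 4.75, 7.42 and 7.44 times that of *Cpa3* across vehicle libraries 1 to 3 and 1.42, 2.95 and 21.1 times in niclosamide 1 to 3. Uterine epithelium also expresses *Hdc* under progesterone, and 6 of 7 listed progesterone-type epithelial genes were tested. Of these 1, *Cyp26a1*, had an unadjusted p under 0.05, against 6.92% of all genes tested, and 0 had an adjusted p under 0.05. That list summed to 6.75 to 20.1 CPM with vehicle, to 9.54 and 10.8 in niclosamide 1 and 2 and to 293 in niclosamide 3. It was chosen with earlier results of these data known, so its high level in niclosamide 3 is a description and no independent support. *Ihh*, a hedgehog ligand that progesterone induces, had 29.8 CPM in niclosamide 3 and 0.0618 to 0.471 in the other 5 libraries, and *Cyp26a1*, which degrades retinoic acid, had 110 against 0.597 to 2.30. *Il13ra2* had 29.4 against 0.0729 to 0.933 and *Lrp2* 119 against 1.51 to 6.27 CPM, whereas *Calca* was not high in niclosamide 3 (2.49 CPM) and *Sult1e1* was near 0 in every library.

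Neutrophils are another known source of *Hdc*. Their 8 markers summed to 430 to 876 CPM with vehicle and 240 to 361 with niclosamide, with 340 CPM in niclosamide 3, the library with the most *Hdc*. All 8 had a log2 fold change below 0. Of these, 5 had an unadjusted p under 0.05 (lower), against 3.55% of all genes tested, and 0 had an adjusted p under 0.05. General uterine epithelium markers summed to 543 CPM in niclosamide 3, against 368 and 2380 in niclosamide 1 and 2. The part of these cells in the *Hdc* level was not tested.

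**Figure D4:**
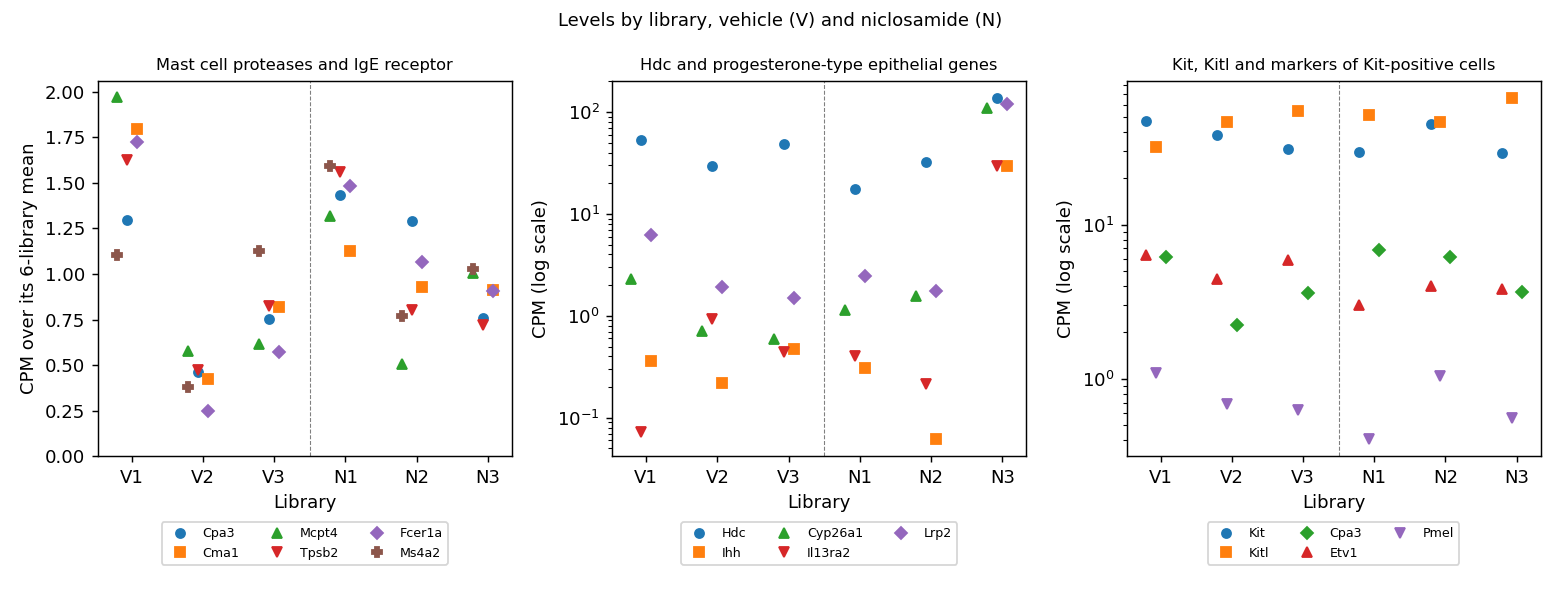
Left, CPM of each protease and IgE receptor chain divided by its mean over the 6 libraries; middle and right, CPM on a log scale of *Hdc* with progesterone-type genes and of *Kit*, *Kitl* and *Cpa3* with a marker of interstitial cells of Cajal (*Etv1*) and of melanocytes (*Pmel*). The proteases share vehicle 2 as a low library, while *Hdc* (137 CPM), *Lrp2* (119) and *Cyp26a1* (110) are all high in niclosamide 3. The progesterone-type genes were listed with earlier results of these data known.

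Genes that handle or sense histamine gave no call either. Of 8 listed, 6 were tested, 4 above and 2 below 0 (median 0.41), and 1 had an unadjusted p under 0.05 (6.92% of all genes tested did). This was the H2 receptor gene *Hrh2*, with 7.91, 8.37 and 8.23 CPM in vehicle 1 to 3 and 16.8, 13.3 and 8.73 CPM in niclosamide 1 to 3 (log2 fold change 0.66 ± 0.27 SE; unadjusted p = 0.043, edgeR adjusted p = 0.705). Its groups did not overlap, although niclosamide 3 lay only just above the vehicle range. *Aoc1*, a diamine oxidase that breaks down histamine outside cells, had 4.74, 2.28 and 8.79 CPM against 2.51, 36.4 and 9.48, so that 1 library, niclosamide 2, stood far above the rest (adjusted p = 0.85). *Hrh1* and the amine transporter *Slc18a2* had log2 fold changes of -0.44 ± 0.365 and 0.72 ± 0.48, and *Hrh3* and *Hrh4* were too low to test.

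Other growth factors of mast cells and their receptors gave no call. Of 16 listed ligands and receptors, 12 were tested, 9 above and 3 below 0 (median log2 fold change 0.17), and 0 had an unadjusted p under 0.05. *Il33*, an alarmin that activates mast cells, had 92.3 CPM ± 56.6 with vehicle, where the values were 156, 49.4 and 71.0, and 113 ± 35.6 with niclosamide. *Il4* had 2 to 12 reads a library, and *Il3*, *Il9* and *Il13* at most 3. *Il1rl1* (above) had the smallest p. *Il3ra*, a receptor chain for interleukin-3, and *Il13ra1*, one for interleukin-13, had log2 fold changes of 0.16 ± 0.17 and 0.28 ± 0.30, each with an edgeR adjusted p of 0.96.

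Among 25 genes of signalling from Kit and the IgE receptor, all tested, 19 lay above 0 and 6 below (median log2 fold change 0.145). Of these, 2 had an unadjusted p under 0.05, against 6.92% of all genes tested. The adaptor gene *Lcp2*, which T cells also express, averaged 64.4 CPM ± 6.78 and 91.1 ± 21.7 (log2 fold change 0.50 ± 0.20, edgeR adjusted p = 0.71). *Cblb*, a ubiquitin ligase that restrains these receptors, and the adaptor gene *Lat* had log2 fold changes of 0.42 ± 0.20 and 0.40 ± 0.19. Most genes of this list are shared by leukocytes, and *Ptprc* also lay above 0; the part of other leukocytes in these values was not tested.

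Basophils share *Cpa3*, *Fcer1a*, *Ms4a2* and *Hdc* with mast cells. Their protease gene *Mcpt8* measured 0, 0 and 2 reads across vehicle libraries 1 to 3, against 2, 1 and 6 across niclosamide libraries 1 to 3, and *Prss34* had 2 to 15 reads. *Cd200r3*, a receptor of basophils and mast cells, measured 1.82, 2.28 and 1.10 CPM across vehicle libraries 1 to 3, against 1.63, 9.42 and 0.404 across niclosamide libraries 1 to 3, so niclosamide 2 was high. That library was also the one in which *Cpa3* (6.18 CPM) stood high while *Mcpt4* (1.39 CPM) was at its lowest, with *Mcpt8* at 1 read. *Cpa3* was also high in niclosamide 1 (6.86 CPM) and vehicle 1 (6.19 CPM), where *Cd200r3* had 1.63 and 1.82 CPM. The part of basophils in these values was not tested.

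Outside the 10 genes, the levels most like the mean log2 CPM of the 4 proteases over the 6 libraries, among 13110 candidates, were those of *Cdon* (Pearson r = 0.997), *Mrc1* (0.988), *Ctdnep1* (0.983), *Abi3bp* (0.981), *D8Ertd738e* (0.979) and *Ccdc22* (0.979). *Mrc1*, the mannose receptor of tissue macrophages, measured 225, 109 and 154 CPM across vehicle libraries 1 to 3, against 194, 150 and 150 across niclosamide libraries 1 to 3. That *Mrc1* was highest in vehicle 1, next in niclosamide 1 and lowest in vehicle 2 follows from its choice by correlation. Its range was narrower than that of the proteases. With 6 libraries and 13110 candidates, correlations this high can arise without any link, and a link was not tested.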

How the data were processed

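RNA from 6 lesion libraries was measured by stranded RNA-seq. The authors deposited whole-number read counts per gene symbol, made, per the file headers, with featureCounts 1.4.6-p4 on STAR alignments (reverse-stranded setting, exons summed per gene, GRCm38.p3 annotation, no option for reads that fit several places). The submitters' processing notes also name Trimmomatic 0.33, STAR 2.4.2a and edgeR 3.12.0.

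From these counts, genes were filtered with filterByExpr (minimum count 10, minimum total 15), scaled by TMM and tested with edgeR 4.0.16 in R 4.3.3 (robust quasi-likelihood, group as the only term, threshold 0.05). SE was obtained by dividing the size of the log2 fold change by the root of F, and the 95% interval uses the t quantile of that fit. FPKM is CPM per kilobase of counted exons. Mean log2 CPM used a prior count of 2. Alternatives were DESeq2 1.42.0, limma-voom (limma 3.58.1), other scalings and filters, the replicate block and leaving out each library. The procedure was tested on simulated data. Sequences are from RefSeq (GRCm38.p6) and GENCODE M21.

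All 10 members were named, and from the other lists up to 4 genes with the smallest p plus fixed subset markers. Like genes had the highest Pearson correlation, a mean log2 CPM of at least 1, and no predicted, immunoglobulin or T cell receptor symbol. Members and lists were chosen with earlier results of these data known. *Cma2*, *Cd200r3* and marker genes beyond these were named after their values were seen. Some genes that this rule names are not reported here.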

Additional observations from a re-analysis of the deposited data

How the results depend on the processing

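No member passed an adjusted p of 0.05 under any of the 14 alternatives. Over all genes the number called was 178 by DESeq2 and 1 without a filter on low counts, and 0 under the others. The number of members with an unadjusted p under 0.05 was 0 under every alternative but one: without vehicle 1 it was 1, *Fcer1a* (range 0 to 1 over single libraries left out). The log2 fold change turned sign in 5 members. *Cma1* was 0.25 by limma-voom, 0.38 with library quality weights and 0.20 with the replicate block, and with single libraries left out it ranged from -0.41 to 0.67. *Mcpt4* was 0.0011 by limma-voom and 0.26 with quality weights, with a range of -0.49 to 0.66. *Tpsb2* ranged from -0.36 to 0.67, *Kit* from -0.40 to 0.0037 and *Hdc* from -0.78 to 0.96 with single libraries left out. *Cpa3*, *Kitl*, *Fcer1a* and *Ms4a2* kept a fold change above 0 under every alternative that tested them. The mean protease difference of 0.22 ranged from -0.18 to 0.70 with single libraries left out. Relative to *Ptprc* it was -0.44 with all libraries kept, and was not computed without vehicle 1. The cause of these shifts was not tested. Same-numbered libraries did not all deviate together (correlations of -0.08, -0.09 and 0.27), vehicle 1 correlated best with niclosamide 2, and the replicate block called 0 genes. Leaving out 1 library leaves 5 and changes the genes tested. *Tpsab1*, *Ms4a2* and *Fcer1a*, at 0 to 26 reads, are limited by depth, as are *Slc18a2* (8 to 26 reads) and *Mrgprb2* (5 to 20 reads).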

Other observations

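Eosinophils, another granulocyte of allergic tissue, had 1 gene with a larger log2 fold change than any of the 9 mast cell genes tested. *Prg2*, which encodes eosinophil major basic protein, measured 1.68, 3.79 and 2.61 CPM across vehicle libraries 1 to 3, against 13.8, 18.2 and 6.12 across niclosamide libraries 1 to 3, without overlap (log2 fold change 2.23 ± 0.49 SE; unadjusted p = 0.0033, edgeR adjusted p = 0.53). The other eosinophil genes gave no call at an unadjusted p under 0.05: *Epx* had at most 1 read, *Ear6* had 2 to 5 reads with vehicle and 0 with niclosamide, *Ear2* had a log2 fold change of 0.575 ± 0.36, *Ccr3* one of -0.81 ± 0.53 and *Il5ra* one of 0.60 ± 0.70. Mesothelial markers summed to 540, 225 and 214 CPM across vehicle libraries 1 to 3, against 162, 510 and 164 across niclosamide libraries 1 to 3.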
